A study of Mus musculus with 4 samples.

Results

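Acrosome and zona-binding proteins were followed in RNA of Tslc1-/- and Tslc1+/+ mouse testis through 10 genes: Spam1, Prss39, Acr, Ace, Acrv1, Acrbp, Zp3r, Zpbp, Crisp2 and Clgn. They were taken as every probe set whose platform annotation lists exactly 1 gene and that gene is among the 10. This gave 16 probe sets of 12422 that are not controls, and all 10 genes were on the array. Another 2 probe sets, each listing Acrbp beside a second gene, were left out. The 4 arrays were Affymetrix Mouse Genome U74A version 2, with 2 of Tslc1-/- and 2 of Tslc1+/+ testis. All were from C57BL/6J males 16 weeks old. Tslc1-/- mice lack Tslc1, named Cadm1 in current annotation, which encodes an immunoglobulin-like adhesion protein that germ cells carry on their surface. Which exons the allele lacks, and whether arrays of a genotype stand for separate animals, is not in the labels. The p-values thus cover the spread of these arrays alone, and that spread may be technical.

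The acrosome is a secretory vesicle that grows from the Golgi apparatus of round spermatids and caps the sperm nucleus. It stores hydrolases and matrix proteins that are released by exocytosis near the egg, and some of its proteins, such as Zp3r and Zpbp, can bind the zona pellucida, the glycoprotein coat of the egg. Sperm surface proteins needed for zona binding are first folded in the endoplasmic reticulum of germ cells, where Clgn acts as a testis-specific chaperone.

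Of the 10 genes, the serine protease gene Prss39 fell in Tslc1-/- testis, none rose, and 9 did not pass the test. On the brightest probe set of each gene, the 4 most negative changes were those of Prss39, the hyaluronidase gene Spam1, Acrbp, which encodes a partner of proacrosin, and the peptidase gene Ace. Acr, which encodes the protease acrosin, was the only gene with a positive change, and Zp3r and Clgn were the nearest to 0. With the mean over a gene's tested probe sets, a value with no test, Clgn was at -0.34, Acrbp at -0.30, Ace at -0.28 and Crisp2 at 0.0036. Each gene is represented by its brightest probe set among those whose signals on the 4 arrays average at least 200. Changes are log2 of Tslc1-/- over Tslc1+/+ after 50 was added to each signal, tested with limma and called at a Benjamini-Hochberg adjusted p under 0.05 over all 7975 tested probe sets. All 10 genes had such a probe set, and 14 of their 16 probe sets passed this filter. Among all 5992 tested genes, 0.968% were called lower and 0.267% higher in Tslc1-/-. The median change of the 10 genes was -0.18, against 0.02 for all tested genes. In a testis lysate, fewer cells of a type and less RNA per cell cannot be told apart.

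Transcripts of testis germ cells and of the targeted gene were checked against the labels first. The median signal of the arrays lay between 361.5 and 378, and log2 signals of any 2 arrays correlated across probe sets with r between 0.931 and 0.942. Both tested Cadm1 probe sets fell, with log2 changes of -3.01 and -2.36 (limma, adjusted p = 2.31e-05 and 1.83e-04). Their names end in a suffix for possible cross-hybridisation. The 9 elongating spermatid markers other than Prm2 read from 7964.9 to 136860 on these arrays, and Prm2 read 152.5 to 396.3. The 2 epididymal markers on the array summed to 116.4 to 306.4 in Tslc1-/- and 239 to 388.6 in Tslc1+/+.

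Spam1 encodes the sperm hyaluronidase that lets sperm pass the matrix of the cumulus cells. Its signal was 1601.6 and 1904.3 in Tslc1-/- testis, against 2567 and 2520.5 in Tslc1+/+ testis. Both Tslc1-/- arrays lay below both Tslc1+/+ arrays, and the Tslc1-/- arrays were farther apart than the Tslc1+/+ arrays. The log2 change was -0.53 (standard error 0.16), and Spam1 did not pass over all tested probe sets (limma, adjusted p = 0.21, unadjusted p = 0.00722). The 95% interval of the change ran from -0.88 to -0.18, which is a change of -45.7% to -11.6% on the scale of signal plus 50.

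Prss39 encodes a testis serine protease of the acrosome. Its signal was 8708.3 and 8714.1 in Tslc1-/- testis, against 15251.7 and 13081.4 in Tslc1+/+ testis. The Tslc1-/- arrays were nearly equal and both lay well below the Tslc1+/+ arrays, which differed from each other by 0.22 on the log2 scale. Prss39 averaged 8711 ± 4.10 on Tslc1-/- arrays and 14167 ± 1535 on Tslc1+/+ arrays (SD, n = 2 each), a log2 change of -0.69 (standard error 0.10, limma, adjusted p = 0.00956). This was a fall to a level 1.62-fold below Tslc1+/+, with a 95% interval from -47.2% to -27.6%. The call was lost without the intensity trend of the spread (adjusted p = 0.535) and without Tslc1+/+ replicate 1, Tslc1-/- replicate 1 or Tslc1-/- replicate 2 (adjusted p = 0.11, 0.0963 and 0.088). Without Tslc1+/+ replicate 2 it stood (limma, adjusted p = 0.0323).

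Acr encodes acrosin, the trypsin-like protease that is stored as proacrosin. Its signal was 17932.2 and 15375.9 in Tslc1-/- testis, against 14900 and 14984.8 in Tslc1+/+ testis. Both Tslc1-/- arrays lay above both Tslc1+/+ arrays, though replicate 2 by a margin smaller than the distance between the Tslc1-/- arrays. The log2 change was 0.15, with a 95% interval from -0.06 to 0.37 (limma, adjusted p = 0.673). It was 0.041 without Tslc1-/- replicate 1 and 0.26 without Tslc1-/- replicate 2. The intervals of the acrosomal proteases Prss39 and Acr did not overlap.

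**Figure D1:**
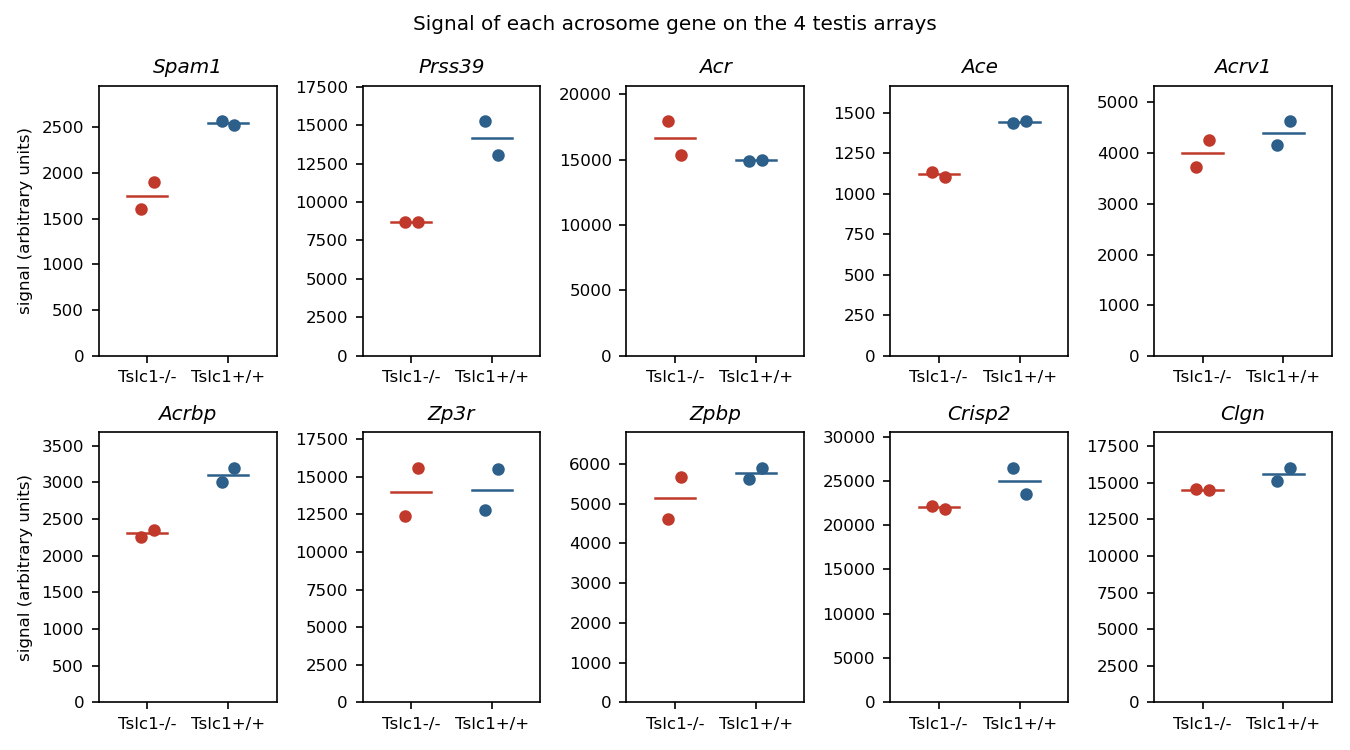
Signal (linear, arbitrary units, axes from 0) of the brightest probe set of each of the 10 genes. Points are single arrays, Tslc1-/- in red at the left and Tslc1+/+ in blue at the right of each panel, and bars are means of 2 arrays. The genotypes are apart for Prss39, Spam1, Ace, Acrbp, Crisp2, Clgn and Acr (higher in Tslc1-/-), and overlap for Acrv1, Zp3r and Zpbp.

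Ace encodes angiotensin-converting enzyme, a peptidase with a testis form made in germ cells from a start inside the gene and a longer somatic form found on endothelium. Its brightest probe set read 1136.7 and 1103.9 in Tslc1-/- testis, against 1438.5 and 1447.2 in Tslc1+/+ testis. The arrays of each genotype were close together and the genotypes were apart, but the log2 change of -0.35 did not pass (limma, adjusted p = 0.58, 95% interval from -0.76 to 0.05). For the second tested Ace probe set, Tslc1-/- arrays gave 720.4 and 503.6 against 824.1 and 608 for Tslc1+/+ arrays, with a change of -0.22, and its genotypes overlapped. One more was below the signal filter, at 174.7 and 32.3 on Tslc1-/- arrays and 55.4 and 142 on Tslc1+/+ arrays. Which Ace transcript each probe set reads is not given in the sources used here. Of 6 endothelial markers on the array, 3 were tested and none passed. The summed signal of the 6 was 1222 and 1278 in Tslc1-/- against 2294 and 2039 in Tslc1+/+. The markers did not move alike: of the 3 tested, Pecam1 and Kdr were lower (changes -1.92 and -1.13) and Vwf was higher (0.22). Pecam1 alone averaged 181.1 in Tslc1-/- and 799.25 in Tslc1+/+. The part of endothelial cells in the Ace signal was not tested.

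Neither acrosomal matrix gene passed. Acrbp, whose protein binds proacrosin and keeps it packed in the acrosome, read 2261.1 and 2355.1 in Tslc1-/- testis, against 2999.5 and 3199.2 in Tslc1+/+ testis. The genotypes were apart, with a log2 change of -0.42 and a 95% interval from -0.72 to -0.11, but Acrbp did not pass (limma, adjusted p = 0.278, unadjusted p = 0.0128). A second tested Acrbp probe set, with a cross-hybridisation suffix, gave 1925.5 and 2002.1 on Tslc1-/- arrays, against 1946.3 and 2545.3 on Tslc1+/+ arrays. Its change was -0.18 and 1 Tslc1+/+ array lay within the Tslc1-/- range. The remaining Acrbp probe set was dim, between 11.9 and 24.9 on all arrays. Acrv1, the acrosomal matrix protein also called SP-10, read 3731.4 and 4258 in Tslc1-/- testis, against 4155.2 and 4629.7 in Tslc1+/+ testis. Its genotypes overlapped, and the change was -0.14 (limma, adjusted p = 0.788, 95% interval from -0.42 to 0.15). It was nearest to 0, at -0.04, without Tslc1-/- replicate 1, at -0.06 without Tslc1+/+ replicate 2, and lower, at -0.21 and -0.23, without Tslc1+/+ replicate 1 and Tslc1-/- replicate 2.

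Neither zona binder passed. Zp3r, an acrosomal matrix protein that can bind the zona glycoprotein ZP3, read 12374.9 and 15612.2 in Tslc1-/- testis, against 12776.3 and 15532.3 in Tslc1+/+ testis. The genotypes spanned nearly the same range, and the change was -0.02 (limma, adjusted p = 0.979, 95% interval from -0.31 to 0.27). Its sign turned with quantile normalization (0.054), without Tslc1+/+ replicate 2 (0.12) and without Tslc1-/- replicate 1 (0.15), and its single probe set carries a cross-hybridisation suffix. Zpbp, a zona-binding protein of the acrosome, read 4615.2 and 5675.6 in Tslc1-/- testis, against 5628.6 and 5904.7 in Tslc1+/+ testis. These overlapped too, with a change of -0.17 (limma, adjusted p = 0.725, 95% interval from -0.45 to 0.11). The change was -0.022 without Tslc1-/- replicate 1 and -0.32 without Tslc1-/- replicate 2.

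Crisp2 encodes a cysteine-rich protein of the acrosome and the sperm tail. Its signal was 22176.9 and 21829.8 in Tslc1-/- testis, against 26485.2 and 23555.3 in Tslc1+/+ testis. The genotypes were apart, but the log2 change of -0.18 did not pass (limma, adjusted p = 0.525, 95% interval from -0.37 to 0.01). The second Crisp2 probe set, with a cross-hybridisation suffix, gave 1023.1 and 1065 on Tslc1-/- arrays, against 676.8 and 1215.4 on Tslc1+/+ arrays, a change of 0.19. The mean over both probe sets was 0.0036. On the brighter one the change was -0.098 without Tslc1+/+ replicate 1 and -0.011 with quantile normalization (limma, adjusted p = 0.978).

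Clgn encodes calmegin, the endoplasmic reticulum chaperone that assists the assembly of the fertilin pair of ADAM proteins. Its signal was 14577.4 and 14495.6 in Tslc1-/- testis, against 15119.3 and 16034.2 in Tslc1+/+ testis. Both Tslc1-/- arrays lay just below both Tslc1+/+ arrays. The change was -0.10 (limma, adjusted p = 0.77), and its 95% interval was a change of -18.3% to 6.68%. A second, much more variable Clgn probe set gave 1071.6 and 193.7 on Tslc1-/- arrays, against 798.6 and 665.4 on Tslc1+/+ arrays, with a change of -0.58 and an interval from -1.82 to 0.67. The mean over both probe sets was -0.34. On the brightest one, the change ran from -0.14 to -0.06 with 1 array left out. Of these, the value without Tslc1+/+ replicate 2 was nearest to 0. With quantile normalization the change was -0.035. In the fit with the intensity trend, the intervals of Clgn and Prss39, each on its brightest probe set, did not overlap. Without the trend the standard errors were 0.16 and 0.17, and those intervals were not compared.

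**Figure D2:**
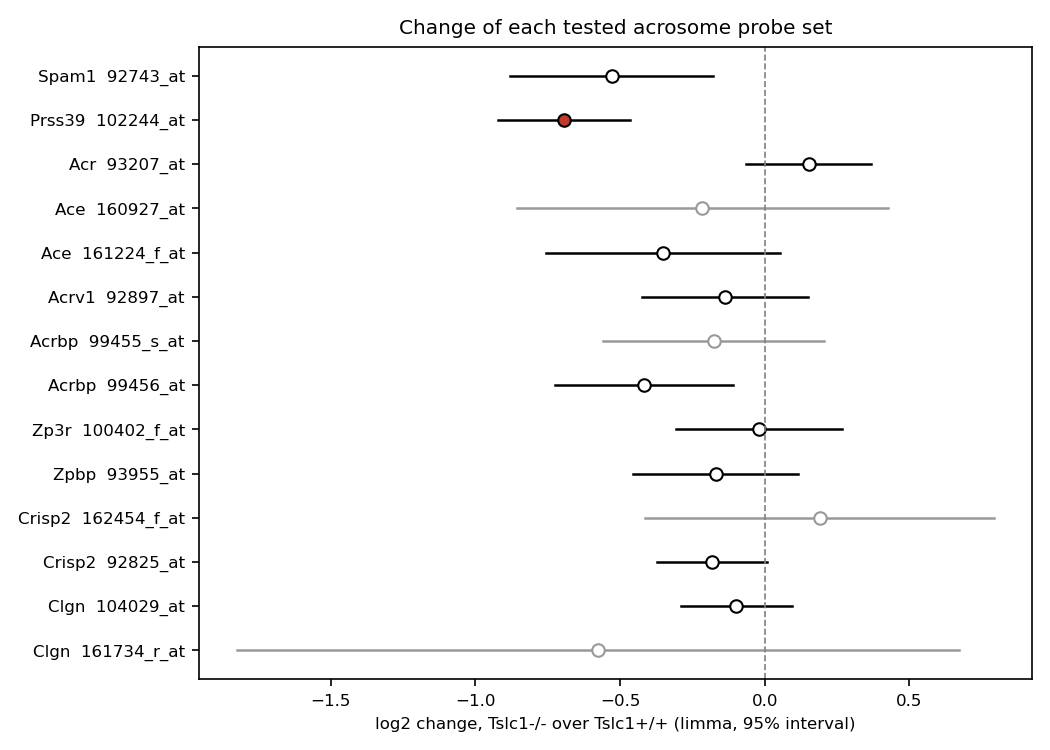
Log2 change of Tslc1-/- over Tslc1+/+ for the 14 tested probe sets, with 95% intervals from limma. Black bars mark the brightest probe set of a gene and grey bars its other probe sets, and the filled point is the only one called, Prss39 at -0.69. The interval of Acr reaches from -0.06 to 0.37 and, in this fit with the intensity trend, lies wholly above that of Prss39.

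Across the 10 genes, 9 changes were negative and 1 was positive, while 47.5% of all tested genes had a negative change. Both Tslc1-/- arrays lay below both Tslc1+/+ arrays for 6 genes, Spam1, Prss39, Ace, Acrbp, Crisp2 and Clgn, against 18.8% of all tested genes. They lay above for Acr alone, against 21.9% of all tested genes. These separations were read on the deposited signals, without quantile normalization. At an unadjusted p under 0.05 stood 3 of the 10 genes, Prss39, Spam1 and Acrbp, against 10.5% of all tested genes. The 10 genes were chosen with earlier results of these data known. These shares and their median change are thus not independent of that choice. The 10 probe sets were brighter than most, with mean signals from 1282 to 23512. The limma fit with an intensity trend gave standard errors of 0.09 to 0.18 for the 10 genes, against a median of 0.25 over all tested genes. That trend ties the standard error to brightness, and without it the 10 ran from 0.15 (Ace) to 0.22 (Zp3r). Among the 2740 tested genes with a mean signal of at least 1000, a limit chosen after the values were seen, the median change was 0.02, 1.97% were called lower and 21.1% had both Tslc1-/- arrays lowest.

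A factor that scales a whole array cancels in the ratio of 2 genes on it, apart from the small effect of the added 50. The log2 ratio of Prss39 to Acr was -1.04 and -0.82 in Tslc1-/- testis, against 0.03 and -0.20 in Tslc1+/+ testis, a change of -0.85. The ratio of Prss39 to Clgn was -0.74 and -0.73 in Tslc1-/- testis, against 0.01 and -0.29 in Tslc1+/+ testis, a change of -0.60. The ratio of Prss39 to Zp3r was -0.50 and -0.84 in Tslc1-/- testis, against 0.25 and -0.25 in Tslc1+/+ testis, a change of -0.67. In each case both Tslc1-/- arrays were below both Tslc1+/+ arrays. This held for the ratios of Prss39 to 8 of the 9 other genes, with changes from -0.85 to -0.28. The exception was Spam1, to which the ratio was lower by 0.16 with the genotypes overlapping. The share of such separated ratios among pairs of all tested genes was not computed, so the count has no background to be read against. Without Tslc1+/+ replicate 1 the ratio of Prss39 to Acrbp changed by -0.12, to Zp3r by -0.42, to Ace by -0.23 and to Acrv1 by -0.37. Without Tslc1+/+ replicate 2 the ratio to Acrbp changed by -0.43. With any 1 array left out, the 9 changes were negative, from -0.96 for Acr to -0.044 for Spam1. Prss39 had the most negative change of the 10 genes. The negative sign of its ratio changes on all arrays restates that rank and is no separate result. Spam1 was lower relative to 7 of the other genes on both Tslc1-/- arrays, the exceptions being Prss39 and Acrbp, and relative to Acr its change was -0.68. Spam1 had the next most negative change after Prss39, so the signs of its ratio changes restate that rank too. This count has no background share either. With 2 arrays against 2, an exact permutation test cannot give a two-sided p under 0.333, and the ratios that did not overlap gave that value, over 45 pairs of genes.

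**Figure D3:**
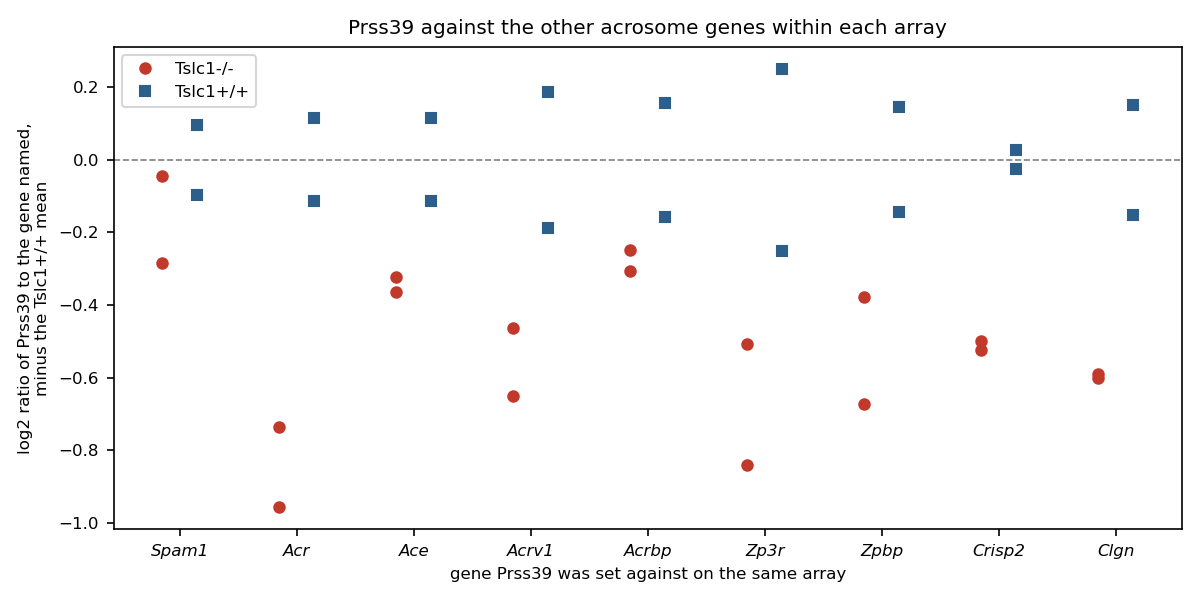
Log2 ratio of Prss39 to each of the other 9 genes on the same array, with the Tslc1+/+ mean of each ratio set to 0. Red circles are the 2 Tslc1-/- arrays and blue squares the 2 Tslc1+/+ arrays. The genotypes overlap only for the ratio to Spam1, and the gap is widest for Acr, at -0.85. Prss39 was the gene with the most negative change, which fixes the sign of each ratio change.

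RefSeq promoters of the genes with the most negative changes, Prss39, Spam1, Acrbp and Ace, show what stands before their starts. Each runs from 250 bases before to 50 after the start in GRCm38.p6. Promoters were matched for 8 of the 10 genes, 9 sequences in all because Ace has 2 starts; Acr and Clgn had no entry. They were searched on both strands for TGANGTCA, a form of the cyclic AMP response element through which Crem, the spermatid transcription regulator, is known to act. The form was chosen after the sequences were seen, and it includes TGACGTCA. Capitals mark a match.
Prss39, chr1:34498162-34498461, plus strand: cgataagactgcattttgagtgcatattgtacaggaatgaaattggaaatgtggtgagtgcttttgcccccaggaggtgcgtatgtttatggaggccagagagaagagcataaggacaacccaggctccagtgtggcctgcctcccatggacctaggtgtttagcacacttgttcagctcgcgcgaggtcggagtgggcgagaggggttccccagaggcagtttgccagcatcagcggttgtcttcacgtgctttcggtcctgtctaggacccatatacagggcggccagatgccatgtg
Spam1, chr6:24790938-24791237, plus strand: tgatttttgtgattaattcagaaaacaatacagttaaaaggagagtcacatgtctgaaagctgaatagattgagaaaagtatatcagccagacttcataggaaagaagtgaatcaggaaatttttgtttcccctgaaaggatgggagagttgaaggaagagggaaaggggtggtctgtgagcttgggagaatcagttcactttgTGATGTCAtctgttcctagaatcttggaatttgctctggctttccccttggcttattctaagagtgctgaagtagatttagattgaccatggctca
Acrbp, chr6:125049677-125049976, plus strand: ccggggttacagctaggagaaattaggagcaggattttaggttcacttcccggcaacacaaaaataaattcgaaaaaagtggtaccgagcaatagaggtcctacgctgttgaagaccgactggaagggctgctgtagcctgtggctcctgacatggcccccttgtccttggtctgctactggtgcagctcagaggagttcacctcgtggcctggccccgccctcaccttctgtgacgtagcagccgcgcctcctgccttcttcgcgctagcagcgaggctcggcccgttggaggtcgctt
Ace, downstream start, chr11:105974939-105975238, plus strand: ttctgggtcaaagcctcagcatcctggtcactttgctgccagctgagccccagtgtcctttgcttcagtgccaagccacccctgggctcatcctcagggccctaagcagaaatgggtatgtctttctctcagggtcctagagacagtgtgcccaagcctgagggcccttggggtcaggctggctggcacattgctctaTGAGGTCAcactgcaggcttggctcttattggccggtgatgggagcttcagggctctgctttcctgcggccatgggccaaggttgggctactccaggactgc
Ace, upstream start, chr11:105967698-105967997, plus strand: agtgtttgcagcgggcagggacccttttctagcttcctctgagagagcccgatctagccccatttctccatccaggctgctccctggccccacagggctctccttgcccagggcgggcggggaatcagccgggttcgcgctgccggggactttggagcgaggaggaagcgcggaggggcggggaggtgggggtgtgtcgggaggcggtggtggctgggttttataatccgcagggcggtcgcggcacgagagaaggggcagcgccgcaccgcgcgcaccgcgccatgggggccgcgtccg

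Of the 9 promoters, 2 held a match, those of Spam1 (TGATGTCA) and of the downstream Ace start (TGAGGTCA). The first base of the match lay 46 bases before the Spam1 start and 52 bases before the downstream Ace start. Among all 32851 promoters of this length, 8.83% held TGANGTCA and 1.79% held TGACGTCA. Because the form was chosen after the sequences were seen, the 2 of 9 cannot be weighed against 8.83%. Neither Prss39 nor Acrbp had a match to this form in this window, and sites that depart from it were not searched. The genes with a match had changes of -0.53 and -0.35, and those without one ranged from -0.69 for Prss39 to -0.02 for Zp3r. The brighter of 2 tested Crem probe sets, both with a cross-hybridisation suffix, read 483.4 and 479 in Tslc1-/- testis and 554.9 and 469.3 in Tslc1+/+ testis, and did not pass (change -0.08, limma, adjusted p = 0.965). The other was at -1.12 and did not pass (limma, adjusted p = 0.517).

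Other genes of the same pathways were followed in 5 lists that hold none of the 10 genes. Of 105 genes listed, 59 were on the array and 49 were tested, of which 1 rose, none fell and 48 did not pass, with 6 at an unadjusted p under 0.05, a share near the 10.5% of all tested genes. These were Eqtn, Spa17, Cd59a, Adam2, Rab3a and Plcb1. The lists' median change was 0.06. The gene that rose was Eqtn, which encodes equatorin, a membrane protein of the acrosome. Its signal was 1693.8 and 1709.8 in Tslc1-/- testis, against 757.5 and 710.8 in Tslc1+/+ testis. The arrays of each genotype were close together, and the log2 change was 1.16 (standard error 0.19, limma, adjusted p = 0.0171). Eqtn lost its call whichever array was omitted (adjusted p = 0.0799 to 0.169) or without the intensity trend (limma, adjusted p = 0.348).

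Among other acrosomal and sperm surface fertilization proteins, 15 were tested, 14 besides Eqtn did not pass, and the median change was 0.11. Spa17, a protein of the sperm fibrous sheath, read 19314.3 and 19895.3 in Tslc1-/- testis, against 24655 and 27110.5 in Tslc1+/+ testis, a change of -0.40 (limma, adjusted p = 0.0614). Cd59a, a surface inhibitor of complement, read 794.8 and 537 in Tslc1-/- testis, against 1255.3 and 1105.7 in Tslc1+/+ testis. Its genotypes were apart too, with a change of -0.80 that did not pass (limma, adjusted p = 0.235). Prss40, named after its values were seen, is a testis serine protease gene that lies near Prss39 on chromosome 1. It read 572.5 and 729.2 in Tslc1-/- testis, against 498.6 and 611.9 in Tslc1+/+ testis. These ranges overlapped, with a change of 0.21 (limma, adjusted p = 0.856).

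Of 16 listed genes of sperm surface maturation downstream of Clgn, 3 were on the array. All 3 were tested and none passed, with a median change of 0.13. Adam2, which encodes fertilin beta, read 4992.8 and 5754 in Tslc1-/- testis, against 3814.9 and 4152.9 in Tslc1+/+ testis. The genotypes were apart, but the change of 0.42 did not pass (limma, adjusted p = 0.203). Adam3, a sperm surface protein needed for zona binding, had a change of 0.13, and the sulfotransferase gene Tpst2 one of -0.12. Of the general endoplasmic reticulum chaperones 8 were tested and none passed, with a median of 0.00. In that list Pdia6, a protein disulfide isomerase, had the smallest p, at a change of 0.22 (limma, adjusted p = 0.693). Its other tested probe sets were at -0.19 and -0.10, and the mean over the 3 was -0.022.

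Genes that build or release the acrosome did not pass either. Of the acrosome biogenesis genes 11 were tested, with a median change of 0.03, and the Golgi protein gene Golga3 had the smallest p, at -0.16 (limma, adjusted p = 0.799). Of the acrosomal exocytosis genes 12 were tested, with a median of 0.02. Rab3a, a small GTPase of regulated exocytosis, read 1624.9 and 1257.7 in Tslc1-/- testis, against 378.8 and 785.6 in Tslc1+/+ testis. The genotypes were apart but the Tslc1+/+ arrays differed widely, and the change of 1.31 did not pass (limma, adjusted p = 0.102). Without Tslc1+/+ replicate 2 it was 1.79 and passed (limma, adjusted p = 0.0387), and without Tslc1+/+ replicate 1 it was 0.82 and did not (adjusted p = 0.316). It did not pass without Tslc1-/- replicate 1 or 2 either (limma, adjusted p = 0.55 and 0.293). Plcb1, a phospholipase C gene, had a change of 0.31 (limma, adjusted p = 0.438, unadjusted p = 0.0349).

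**Figure D4:**
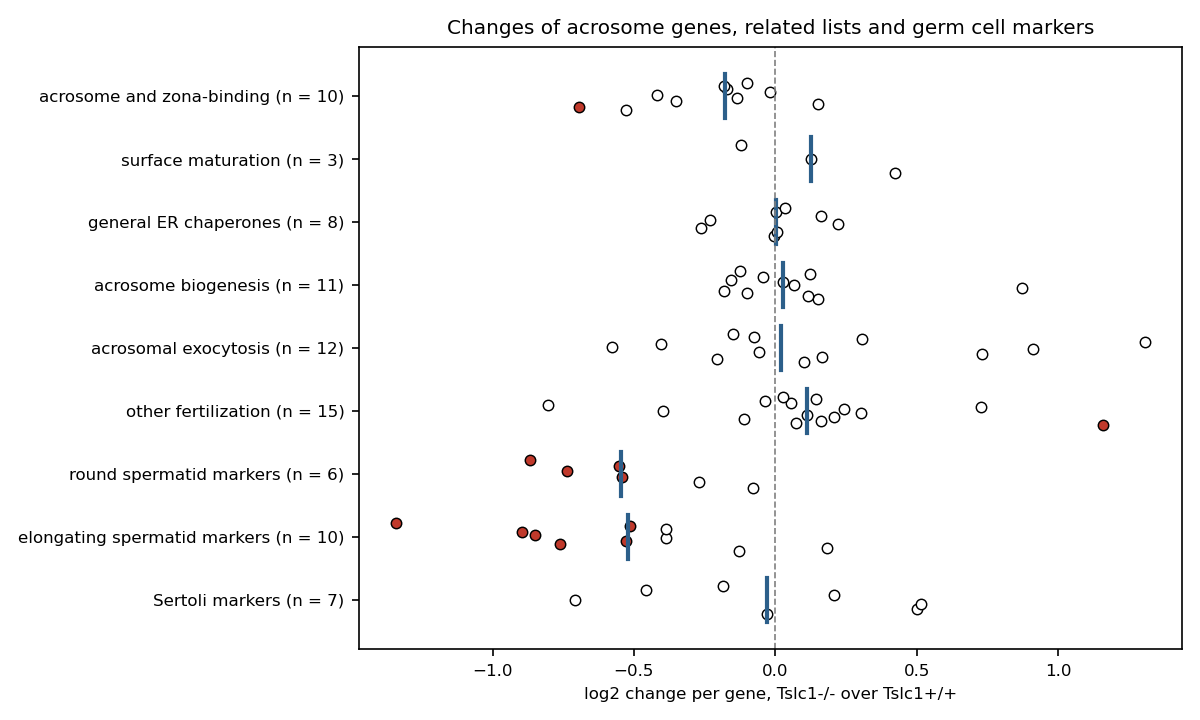
Log2 change of Tslc1-/- over Tslc1+/+ per gene for the 10 acrosome and zona-binding genes, 5 related lists and 3 lists of cell type markers. Each point is a tested gene, filled points passed the test, and blue bars are medians. The 10 genes have a median of -0.18. The related lists are at 0.00 to 0.13, the spermatid markers at -0.55 and -0.52 and the Sertoli markers at -0.03. Other marker lists are not drawn, among them spermatocyte markers at 0.05 and endothelial markers at -1.13. All lists were chosen with earlier results of these data known.

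Several markers of the cells that carry the acrosome fell in the same arrays, and not all did. Of 6 tested round spermatid markers, 4 fell (Tssk2, Gsg1, Tcp11 and Theg) and 2 did not pass (Crem and Tssk1), with a median change of -0.55. With 1 array left out 1 to 2 were called, and without the intensity trend limma called 0, with 4 at an unadjusted p under 0.05. Their summed signal was 120560 and 122902 in Tslc1-/- testis, against 182410 and 189163 in Tslc1+/+ testis. Of 10 tested elongating spermatid markers, 6 fell and 4 did not pass, with a median of -0.52. Among the 4, Prm2 was at 0.18 (standard error 0.59) on a dim probe set, 152.5 to 396.3, which leaves its direction unknown. The summed signals of the 10 were 418694 and 392162 in Tslc1-/-, against 581676 and 586022 in Tslc1+/+. With 1 array left out 4 to 6 were called, and without the trend 0, with 6 at an unadjusted p under 0.05. Each summed signal was thus lower on both Tslc1-/- arrays. Among all tested genes, 0.968% were called lower. The marker lists were chosen with earlier results of these data known, so their counts and medians are not independent of that choice. The medians of -0.55 and -0.52 stand beside -0.18 for the 10 acrosome and zona-binding genes, and a difference between the lists was not tested. Of 6 tested spermatocyte markers 1 fell, the glycolytic enzyme gene Pgk2 (limma, adjusted p = 0.00495). This call was lost without the trend and without Tslc1+/+ replicate 1, Tslc1+/+ replicate 2 or Tslc1-/- replicate 1. That list had a median of 0.05. None of the 7 tested Sertoli cell markers passed, with a median of -0.03 and summed signals of 24458 and 23868 in Tslc1-/- and 24040 and 23826 in Tslc1+/+. The part of these cells in the fall of Prss39 was not tested.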

How the data were processed

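Testis RNA of 2 Tslc1-/- and 2 Tslc1+/+ samples was measured on 1 array each, grouped by the titles. The deposited values are linear probe set intensity, which the authors computed with Affymetrix Microarray Suite 5.0 (also MAS5 in the submitters' processing notes) and scaled globally to a target of 1000, per the labels' design text. Such scaling hides a change in total RNA. The number of arrays limits the precision. Gene names come from the platform annotation, and symbols were updated by Entrez identifier through RefSeq genes of GRCm38.p6. The 66 control probe sets were not used, which left 12422 of 12488. The genome build of the array annotation is not given in the sources used here.

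The analysis took log2(signal + 50) without normalizing again, where the mean signal was at least 200. limma 3.58.1 (R 4.3.3) was fitted with an intensity trend and Benjamini-Hochberg adjustment, two-sided, and tested on simulated data. Intervals are 95% limma intervals. Members and gene lists were chosen with earlier results of these data known. The named genes were all members, Cadm1, and from each related list the genes past the threshold and the one with the smallest p. Spa17, Cd59a, Plcb1, Prss40, Adam3, Tpst2 and the markers named were added after their values were seen. Alternatives covered the pseudocount, filter, trend, normalization, suffix probe sets, a replicate block, each array left out, and the mean over a gene's probe sets.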

Additional observations from a re-analysis of the deposited data

How the results depend on the processing

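The number of called probe sets, 86, was 0 without the intensity trend (638 at an unadjusted p under 0.05 by limma), 239 with the replicate block and 37 to 43 with 1 array left out. The count of called acrosome and zona-binding genes, 1, was 0 without the trend (2 at an unadjusted p under 0.05) and 0 to 1 with 1 array left out. Their median change, -0.18, was -0.14 with quantile normalization, -0.23 with the mean over each gene's probe sets and -0.27 to -0.15 with 1 array left out. The count of called genes in the related lists, 1, was 0 without the trend (3 at an unadjusted p under 0.05), 2 with equal array medians, 2 where probe sets with a cross-hybridisation suffix were left out, 3 with the replicate block and 0 to 1 with 1 array left out. With equal medians, without suffix probe sets and with the block, Spa17 joined Eqtn, and with the block Rab3a did too. The sign of Zp3r turned with quantile normalization (0.054), without Tslc1+/+ replicate 2 (0.12) and without Tslc1-/- replicate 1 (0.15), and it ranged from -0.19 to 0.15 with 1 array left out. No other of the 10 genes changed sign in a test, while the mean over both Crisp2 probe sets, a value with no test, was 0.0036.

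The replicate numbers are not given as pairing animals or batches, and deviations of same-numbered arrays correlated with r = -0.00119 over 7975 probe sets, so the block result is given only here. The second probe sets of Ace, Crisp2 and Clgn, with mean signals of 664, 995.1 and 682.3, had standard errors of 0.29, 0.27 and 0.56.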
